A study of Arabidopsis thaliana with 9 samples.

Results

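Prolonged warming (PW) and heat shock (HS) were pooled and compared with the control (CK), which asked how the leaves of Arabidopsis thaliana respond to a raised temperature of either kind. The change of a gene is the average of its HS vs CK and PW vs CK changes, and a gene was described as common only where both treatments moved it in the same direction. Of 33602 identifiers with deposited counts, 18952 had at least 10 counts in at least 3 libraries and were tested. Among them 13563 moved in the same direction, 6697 above CK and 6866 below CK in both treatments, and 5389 moved in opposite directions.

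All plants were wild-type Col-0, the common laboratory accession, under 16 h of light and 8 h of darkness. Leaves of every group came from plants 30 days after sowing. CK plants had days of 23 °C and nights of 18 °C. PW plants spent 7 days before sampling with days of 28 °C and nights of 23 °C, and HS plants spent 6 h at 38 °C in the light period. Each group had 3 libraries, which the study's methods call biological replicates. The hour of the day at which each group was sampled is not given in the sources used here, so for genes with a daily rhythm the treatment and the hour of sampling cannot be told apart. In whole leaves, fewer cells of a type and less RNA per cell cannot be told apart either.

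Plants read temperature partly through the circadian clock, a loop of morning and evening transcription factors that repress or activate each other, and through phytochrome interacting factors (PIFs), which promote elongation growth in warmth. Severe heat acts through heat shock factors, which switch on chaperones that keep unfolded proteins from clumping. Salicylic acid defence, antenna proteins of the photosystems and cold-regulated genes are further groups known to respond to temperature in leaves.

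Library totals were 13772506 to 17768334 counts in CK, 11966328 to 12781806 under PW and 11660970 to 13734801 under HS. The 100 genes with the most counts held 21.7% to 24.9% of a CK library, 32.9% to 38.9% of a PW library and 25.2% to 30.7% of an HS library, and libraries were scaled by edgeR's trimmed mean of M values (TMM). The correlation of log2 CPM, the counts scaled to the size of the library, was 0.987 between HS replicates 1 and 2, but 0.912 between HS replicate 3 and each of them, so counts are also given without HS replicate 3 where they moved by more than 1.5 times. Among PW replicates it was 0.935 between 1 and 2, 0.965 between 1 and 3 and 0.963 between 2 and 3. Among CK replicates it was 0.982 to 0.988. Leaf marker genes such as RBCS1A and RCA had summed levels of 11160 to 15350 CPM under CK, 42470 to 50130 under PW and 20120 to 30150 under HS. The root markers summed to at most 2.22 CPM and the seed markers to at most 2.53 CPM in any library. Flower markers summed to 2.24 to 39.4 CPM under CK, 5.97 to 33.7 under PW and 1.98 to 7.82 under HS, and 0 of the 7 tested passed.

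A gene was called where edgeR's quasi-likelihood test gave a Benjamini-Hochberg adjusted p under 0.05, the pooled change was at least 2-fold, and HS and PW moved the same way. Below, rose and fell refer to this pooled call, and a called gene need not pass in each treatment on its own. In all, 1527 genes rose (8.06% of those tested) and 1587 fell (8.37%), which is 16.4% in either direction, and these shares are the background for every list below. On the log2 scale the median pooled change was 1.45 among the genes that rose and -1.61 among those that fell, against 4.4e-06 over all tested genes. The gene just inside the 2-fold limit, AT1G05720, had a log2 change of -1.0005, and the gene just outside it, APG12B, -0.99996. With HS replicate 3 left out, 2536 genes fell. Scaled by library size alone, without TMM, 862 rose and 2501 fell, a share of 25.6% higher against 49.0%, and the median of all tested genes moved by -0.296, so directions are given relative to the TMM scale.

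Among the 1527 genes that rose, 795 were also called in each treatment on its own, 438 in HS alone, 286 in PW alone and 8 in neither. Among the 1587 that fell, the numbers were 741, 533, 257 and 56. Over all tested genes, 11.3% were higher and 10.5% lower in HS vs CK, and 8.82% higher and 7.60% lower in PW vs CK. These 2 comparisons share the CK libraries, so their calls are not independent of each other. In 1200 of the risen genes all 6 warmed libraries lay above all 3 CK libraries, and in 1352 of the fallen genes all lay below, whereas 14.4% and 16.0% of all tested genes did so. The sizes differed between treatments (PW vs HS adjusted p under 0.05) in 564 of the risen genes, 333 of them with the larger rise in HS, and in 438 of the fallen genes, 292 of them with the larger fall in HS. Over all tested genes 26.7% differed between PW and HS. Those 1002 differences became 665 without HS replicate 2 and 1859 without HS replicate 3.

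Common rises were ranked by the smaller of the HS and PW changes, among called genes within the overlap and count limits given under processing. Some called genes with fewer counts had larger changes and were left out. The 12 largest within these limits included 3 clock genes, CCA1, PRR9 and LNK2, described with the clock. AT2G15020 (chromosome 2, 6491425-6493512), which encodes an uncharacterized protein, had 0.324, 1.26 and 1.09 CPM under CK replicates 1 to 3, 47.3, 310 and 200 CPM under PW, and 193, 132 and 48.1 CPM under HS. Its pooled log2 change was 7.44 ± 0.91 (SE, edgeR adjusted p = 0.000525). All warmed libraries lay above all CK libraries, which the rule for naming the gene required. AT1G62510 (chromosome 1, 23136366-23137254), a predicted lipid-transfer protein, had 0.831 to 2.08 CPM under CK, 40.3, 328 and 319 CPM under PW, and 1585, 1432 and 431 CPM under HS. The gene rose by 8.45 ± 0.99 on the log2 scale (edgeR adjusted p = 0.000426), and more in HS than in PW. It overlaps an antisense gene, AT1G62515, and since strand use in the counting is not given, their reads cannot be told apart.

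CAT2 (chromosome 4, 16700312-16703504), the peroxisomal catalase that removes the hydrogen peroxide of photorespiration, had 60.8, 86.9 and 86.6 CPM under CK, 705, 2753 and 1830 CPM under PW, and 1996, 1805 and 693 CPM under HS. It rose 20.8-fold (log2 4.38 ± 0.56, edgeR adjusted p = 0.000639), though an antisense gene, AT4G35080, overlaps it. NDA1, an alternative NAD(P)H dehydrogenase of the inner mitochondrial membrane, had 3.33 to 5.91 CPM under CK, 32.5 to 107 under PW and 32.1 to 96.6 under HS, a 16.2-fold rise. BBX16, a B-box transcription factor, had 5.63 to 9.25 CPM under CK, 58.2 to 146 under PW and 73.7 to 111 under HS, a 13.8-fold rise. CIPK20, a protein kinase regulated by calcium sensors, rose further in PW, from 1.48, 2.64 and 1.85 CPM under CK to 124, 252 and 169 CPM under PW and 57.3, 51.0 and 16.5 CPM under HS. The remaining rises named by the same rule were AT3G24460 (57.1-fold), a serine and sphingolipid biosynthesis protein, AT4G13800 (24.0-fold), a predicted magnesium transporter, and SQP1 (15.2-fold), a squalene epoxidase-like protein. AT3G24460 and AT4G13800 each overlap another gene on the same strand.

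Common falls were ranked by the same rule within the same limits, which again left out some larger changes. The 12 largest within these limits included PDF1.2, PDF1.2c, BG3 and WRKY38, described with the defence genes. JMJD5 (chromosome 3, 7275645-7278420), a histone demethylase tied to the clock, had 221, 182 and 201 CPM under CK, 4.61, 2.60 and 3.61 CPM under PW, and 5.67, 8.41 and 17.43 CPM under HS. It fell by 5.03 ± 0.31 on the log2 scale (edgeR adjusted p = 3.85e-05), further in PW than in HS. AT3G22235, a small cysteine-rich membrane protein, had 1171, 1810 and 1753 CPM under CK, 135, 47.1 and 57.6 CPM under PW, and 28.3, 24.3 and 11.2 CPM under HS. This fall, by 5.26 ± 0.40 on the log2 scale (edgeR adjusted p = 7.54e-05), was larger in HS. Its relative PCC1 lies nearby on the same chromosome, and how the counting treated reads that match both is not given.

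BT2, a BTB and TAZ domain protein that responds to nutrients and sugar, had 89.6, 132 and 194 CPM under CK, 3.93 to 9.44 under PW and 1.47 to 5.66 under HS, and fell by 4.87 ± 0.40 (edgeR adjusted p = 9.52e-05). GRP3S, a glycine-rich cell wall protein, went from 324 to 428 CPM under CK to 9.68 to 50.7 under PW and 14.2 to 19.7 under HS. XBAT34, an E3 ubiquitin ligase family member, went from 35.0 to 46.9 CPM under CK to 1.16 to 3.50 under PW and 1.07 to 3.80 under HS. None of the warmed libraries reached the lowest CK library in any of these 3 genes, which the rule for naming them required. AT5G46730, another glycine-rich protein, AT5G37940, a zinc-binding dehydrogenase, and AT4G22485, a lipid-transfer-like protein, also fell. AT5G37940 and AT4G22485 were listed with 0 counts in 3 and 4 of the 6 warmed libraries, so their fitted folds depend on the prior count, and the call on AT4G22485 was lost with DESeq2.

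**Figure D1:**
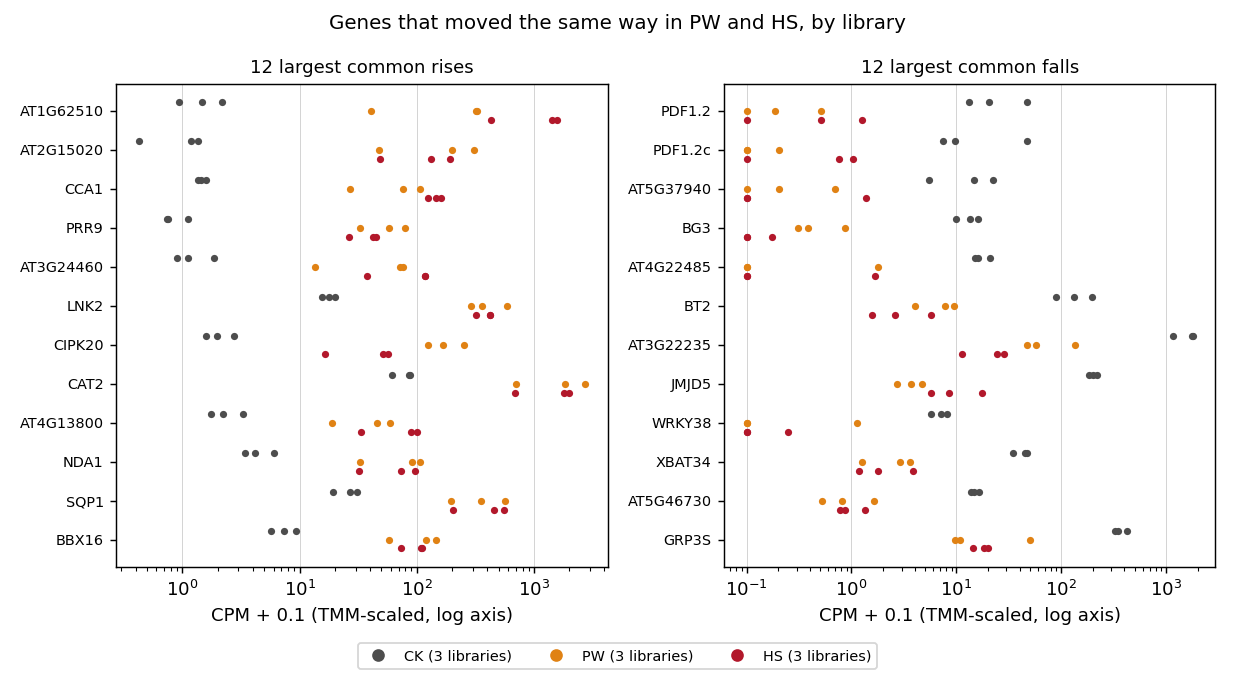
CPM of the 12 named common rises (left) and 12 named common falls (right) in each of the 9 libraries, on a log axis after adding 0.1. There is 1 point per library, with colour for the group. These genes had the largest changes among called genes within the overlap and count limits given under processing. In all 24 genes the 6 PW and HS points lie on the same side of the 3 CK points, as the rule required. For CCA1 they span 27.0 to 160 CPM against 1.26 to 1.48 CPM under CK.

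Most morning genes of the clock rose and 5 evening genes fell. Of 10 tested morning genes, 9 rose and 1 fell (background 8.06% and 8.37%), with a median pooled log2 change of 3.08, 2.74 under HS and 3.57 under PW. These counts were also 9 and 1 when any 1 library was left out and under each scaling tried. CCA1 (AT2G46830, chromosome 2, 19245591-19248915), a MYB-like factor that peaks near dawn and represses evening genes, had 1.48, 1.26 and 1.34 CPM under CK, 27.0, 105 and 76.9 CPM under PW, and 160, 146 and 125 CPM under HS. It rose by 6.19 ± 0.49 on the log2 scale (edgeR adjusted p = 8.12e-05). Its partner LHY had 0.185 to 0.320 CPM under CK, 2.47 to 5.10 under PW and 2.06 to 2.33 under HS, and rose by 3.45 (edgeR adjusted p = 0.000309). The HS libraries were the highest for CCA1 and the PW libraries for LHY, but neither PW vs HS difference passed the test (edgeR adjusted p = 0.077 and 0.11).

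PRR9 (AT2G46790, chromosome 2, 19232607-19235179), a pseudo-response regulator that represses CCA1 and LHY in the morning, had 0.648, 0.631 and 1.02 CPM under CK, 33.0, 78.9 and 58.1 CPM under PW, and 44.6, 42.2 and 26.1 CPM under HS. It rose by 5.91 ± 0.41 (edgeR adjusted p = 5.61e-05). LNK2, a coactivator recruited by RVE8, had 15.5, 19.8 and 17.6 CPM under CK, 290, 585 and 359 CPM under PW, and 420, 422 and 320 CPM under HS, and rose by 4.50 ± 0.29 (edgeR adjusted p = 5.02e-05). LNK2 is overlapped by 2 antisense genes, so its counts may include their reads. RVE8, an activator of evening genes, rose by 3.61 ± 0.27, from 0.704 to 1.34 CPM under CK to 8.63 to 13.3 under PW and 11.99 to 15.1 under HS. The others that rose were RVE1 (2.71), LNK1 (2.35), PRR7 (2.11) and RVE4 (1.87). RVE2 went the other way, from 31.8, 42.2 and 47.3 CPM under CK to 1.64 to 2.58 under PW and 8.79 to 12.04 under HS, and fell by 3.12 (edgeR adjusted p = 2.84e-05).

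The promoters of the 2 morning genes with the largest rises both hold a G-box, CACGTG, a site read by bZIP and bHLH factors such as the PIFs. The 300 bases before each annotated gene start are printed 5′ to 3′ on the gene's strand from the RefSeq sequence of TAIR10.1, with the G-box in capitals.
CCA1, chr2:19245291-19245590, plus strand: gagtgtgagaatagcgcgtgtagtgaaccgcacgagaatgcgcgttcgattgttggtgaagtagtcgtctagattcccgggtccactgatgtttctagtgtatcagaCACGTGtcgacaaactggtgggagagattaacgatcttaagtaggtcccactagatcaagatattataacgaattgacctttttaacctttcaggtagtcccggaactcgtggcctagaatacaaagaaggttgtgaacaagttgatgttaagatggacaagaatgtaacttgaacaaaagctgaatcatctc
PRR9, chr2:19232307-19232606, plus strand: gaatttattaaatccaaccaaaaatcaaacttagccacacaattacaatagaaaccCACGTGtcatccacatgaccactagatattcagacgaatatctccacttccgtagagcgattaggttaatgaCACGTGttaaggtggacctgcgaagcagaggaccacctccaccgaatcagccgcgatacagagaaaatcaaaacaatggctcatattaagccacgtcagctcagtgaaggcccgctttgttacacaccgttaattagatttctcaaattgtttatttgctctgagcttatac
The G-box starts 193 bases before the gene start of CCA1, and 244 and 172 bases before that of PRR9. Searched on both strands, CACGTG was in the windows of 6 of the 10 morning genes, of 11.2% of the 1485 nuclear genes that rose and of 7.17% of the 1576 that fell, against 8.08% of all 18814 tested nuclear genes. A match describes the sequence and does not show that the site is used.

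Of 15 tested genes on the evening list, 5 fell, 3 rose and 7 were not called, with a median pooled log2 change of -0.47. ELF4, a member of the evening complex that represses growth and PRR9 at night, had 124, 162 and 141 CPM under CK, 11.96, 24.2 and 19.0 CPM under PW, and 5.90, 10.8 and 6.11 CPM under HS. It fell by 3.59 ± 0.25 on the log2 scale (edgeR adjusted p = 5.59e-05). LUX, the DNA-binding member of that complex, had 98.2, 104 and 92.8 CPM under CK, 20.5 to 24.7 under PW and 26.2 to 35.1 under HS, and fell by 1.91 ± 0.12 (edgeR adjusted p = 3.47e-05). Their partner ELF3 had 74.7 to 75.5 CPM under CK, 42.4 to 46.5 under PW and 59.4 to 68.0 under HS, a log2 difference of -0.50 that did not reach 2-fold. So the levels of all 3 members lay below CK in every warmed library, by unequal amounts.

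FKF1, a blue light receptor that promotes flowering in long days, had 83.5, 111 and 87.6 CPM under CK, 11.5 to 18.5 under PW and 11.5 to 21.9 under HS, and fell by 2.57 ± 0.22 (edgeR adjusted p = 0.0001). TOC1, which represses CCA1 at night, fell by 1.49 from 169 to 185 CPM under CK to 46.5 to 49.0 under PW and 65.8 to 110 under HS. PRR3 fell by 1.34. The 3 that rose were COL2 (3.11), a CONSTANS relative, and CDF3 (1.73) and CDF1 (1.21), from a family of CONSTANS repressors. These 3 were placed on the evening list but are not members of the evening loop, so their rises are not rises of evening clock genes. GI, ZTL and PRR5 were not called, with log2 differences of -0.14, 0.20 and -0.13.

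The evening element, AAAATATCT, is the site at which CCA1, LHY and the RVE factors bind evening genes. It is shown in capitals, as AAAATATCT or its reverse complement AGATATTTT, in the windows of 2 evening genes.
LUX, chr3:17182742-17183041, plus strand: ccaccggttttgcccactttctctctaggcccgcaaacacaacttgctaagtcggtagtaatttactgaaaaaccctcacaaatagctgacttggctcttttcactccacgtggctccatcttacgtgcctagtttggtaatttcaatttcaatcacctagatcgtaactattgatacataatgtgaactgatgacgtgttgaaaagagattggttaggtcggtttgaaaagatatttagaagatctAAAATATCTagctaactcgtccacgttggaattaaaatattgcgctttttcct
FKF1, chr1:25508339-25508638, plus strand: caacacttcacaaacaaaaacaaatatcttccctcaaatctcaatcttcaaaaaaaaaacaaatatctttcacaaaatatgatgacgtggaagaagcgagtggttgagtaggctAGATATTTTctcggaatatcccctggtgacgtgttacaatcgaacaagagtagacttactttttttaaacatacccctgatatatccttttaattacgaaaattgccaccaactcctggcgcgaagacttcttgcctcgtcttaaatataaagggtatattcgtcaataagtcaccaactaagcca
The element starts 53 bases before the gene start of LUX and 186 bases before that of FKF1. It was in the windows of 5 of the 15 genes on the evening list (33.3%), COL2 included, and 0 of the 10 morning genes. Among the genes that rose 2.76% held it and among those that fell 3.93%, against 2.98% of all tested nuclear genes. The related CCA1 binding site, AAAAATCT, was in 9.23% and 7.80% of the risen and fallen genes, against 8.05% of all.

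**Figure D2:**
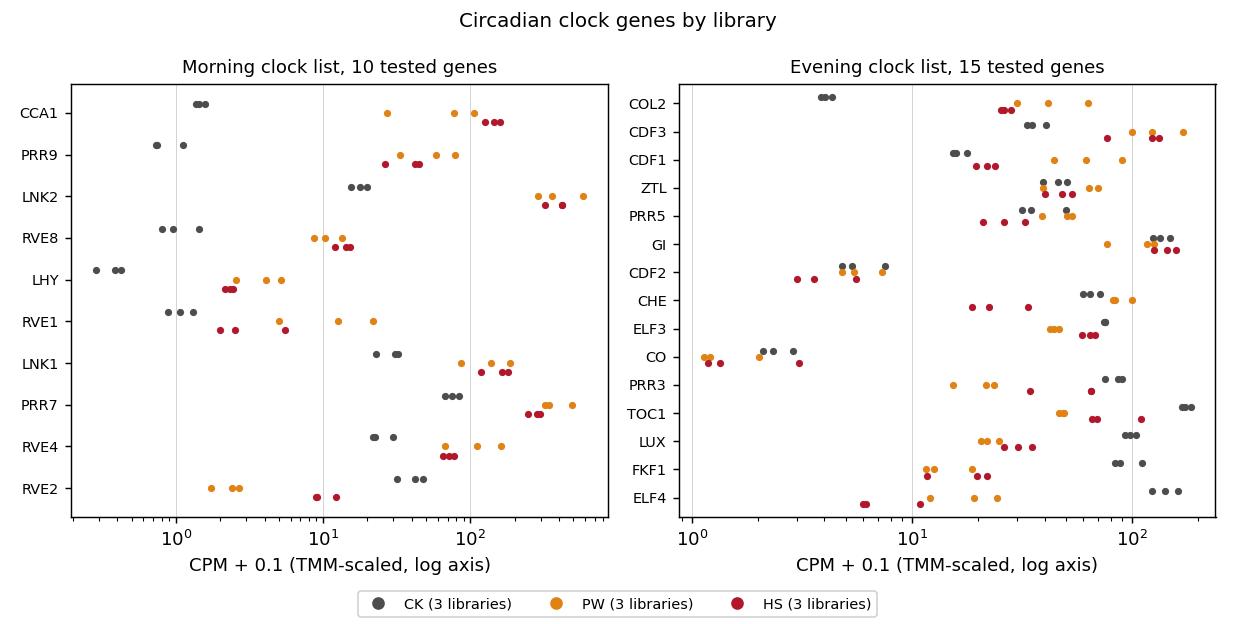
CPM of the tested genes of the morning and evening clock lists in each of the 9 libraries, on a log axis. There is 1 point per library, with colour for the group. The warmed points lie above CK for 9 of the 10 morning genes and below CK for RVE2, while ELF4, LUX, FKF1 and TOC1 lie below CK among the evening genes.

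Of 21 tested antenna genes, which encode the chlorophyll-binding proteins around the photosystems, 11 rose and 0 fell, with a median pooled log2 change of 1.38 (1.13 under HS and 1.73 under PW). Of 34 genes for photosystem subunits and electron carriers, 15 rose and 0 fell (median 0.90), and of 19 Calvin cycle genes, 5 rose and 0 fell (median 0.80). Without TMM the counts were 11, 10 and 5. Leaving out PW replicate 1 or HS replicate 3 raised the Calvin cycle count to 8. Leaf markers moved with these lists (above), as RCA and LHCB1.1 belong to both.

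LHCB2.4, an antenna protein of photosystem II, had 48.0, 80.0 and 70.1 CPM under CK, 1008, 1845 and 2067 CPM under PW, and 194, 238 and 471 CPM under HS. It rose by 3.41 ± 0.41 on the log2 scale (edgeR adjusted p = 0.000462), and its rise was larger in PW. LHCB2.1 had 274, 556 and 413 CPM under CK, 3423, 7054 and 6689 under PW, and 3013, 2724 and 2062 under HS, a 9.31-fold rise. LHCB1.1 had 490, 756 and 783 CPM under CK, 6856, 7900 and 8965 under PW, and 4771, 4821 and 4010 under HS, an 8.85-fold rise. In all 3 the 6 warmed libraries lay above CK, and PW lay above HS. LHCB genes are near-identical copies, so the split of reads between LHCB1 members and between LHCB2 members is uncertain. LHCB1.3 and LHCB1.4 were the 2 antenna genes whose HS and PW levels moved in opposite directions, above CK in PW and below it in HS.

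Among the photosystem genes, PSBY, a small subunit of photosystem II, rose 4.47-fold from 521 to 680 CPM under CK to 2586 to 4563 under PW and 1537 to 2428 under HS. FD1, a minor leaf ferredoxin that accepts electrons from photosystem I, rose 4.38-fold and further in HS, from 136 to 158 CPM under CK to 328 to 499 under PW and 632 to 1067 under HS. PSAH-1 (3.71-fold) and PSBR (3.20-fold) rose as well. In the Calvin cycle, FBA1, a plastid aldolase, rose 5.43-fold, and RCA, which reactivates Rubisco, rose 3.52-fold. RBCS2B, a small subunit of Rubisco, rose 3.32-fold, with the larger rise in PW, and FBA2 rose 2.58-fold.

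Chlorophyll synthesis did not move as a block. Of 22 tested genes 4 rose, 1 fell and 11 moved in opposite directions, with a median of -0.44 under HS and 0.84 under PW. The 4 that rose act at the entry of the pathway or its magnesium branch. CRD1, the cyclase that closes the fifth ring, had 323, 428 and 398 CPM under CK, 2404, 3250 and 3637 under PW, and 1757, 1797 and 1244 under HS (log2 2.54 ± 0.24, edgeR adjusted p = 0.00016). GUN4, which activates magnesium chelatase, had 57.3 to 64.7 CPM under CK, 295 to 465 under PW and 173 to 221 under HS, and CHLH, a subunit of that chelatase, had 527 to 828, 1374 to 3483 and 1287 to 1632 CPM. HEMA1, which makes the first committed precursor, rose most in PW, from 117 to 129 CPM under CK to 832 to 997 under PW and 158 to 284 under HS. GSA1, the next enzyme, fell by 1.03 on the log2 scale, but kept no call without CK replicate 3 or PW replicate 2.

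Salicylic acid protects leaves against biotrophic pathogens through the regulator NPR1, and its marker genes are the PR genes. Of 26 tested genes of salicylic acid signalling and systemic resistance, 14 fell and 0 rose, with a median pooled log2 change of -2.02 (-2.09 under HS and -1.53 under PW). Without CK replicate 1, 24 were tested and 9 fell. BG3, a beta-1,3-glucanase, had 9.86, 16.0 and 13.4 CPM under CK, 0.769, 0.289 and 0.206 CPM under PW, and 0, 0 and 0.0745 CPM under HS. In HS it was 493-fold lower than in CK, with a 95% counting interval of 88.2 to 19490, since 1 count remained against 701. The pooled test gave an edgeR adjusted p of 5.39e-05. However, BG3 reached 10 counts in CK libraries only, so it entered the test through CK. PCR1, known as a cadmium resistance protein, had 82.0, 135 and 117 CPM under CK, 20.8, 4.72 and 5.05 CPM under PW, and 0.699, 0.495 and 0.223 CPM under HS (log2 -5.65 ± 0.49, edgeR adjusted p = 0.000112). PCC1, a small membrane protein tied to pathogens and the clock, had 847, 882 and 886 CPM under CK, 433, 156 and 118 under PW, and 5.98, 5.69 and 2.16 under HS. All 3 genes were lowest in HS.

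NIMIN1, which binds NPR1, had 16.6, 12 and 15.5 CPM under CK, 3.67, 0.771 and 0.721 under PW, and 0, 0.247 and 0.372 under HS. PR1 had 30.9, 12.7 and 2.88 CPM under CK, 1.54, 0 and 0 under PW, and 0.233, 0.577 and 4.54 under HS, so its groups overlapped, and its call (edgeR adjusted p = 0.0154) was lost without CK replicate 1. PR2 and PR5 fell by 2.36 and 2.92 on the log2 scale. The regulators SARD1 (-2.82) and CBP60G (-3.20), which drive salicylic acid synthesis, EDS5 (-2.43), which exports its precursor from the plastid, and EDS1 (-1.67) fell too. The synthesis enzymes ICS1 and ICS2 were not called, with log2 differences of -0.31 and 0.18, nor were the receptors NPR1 (-0.33), NPR3 (-0.67) and NPR4 (-0.04).

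WRKY factors regulate defence and senescence. Of 43 tested, 12 fell and 0 rose (median -0.47), and 7 fell without CK replicate 1 or without PW replicate 3. WRKY38 had 5.60, 8.04 and 7.10 CPM under CK, 1.03, 0 and 0 under PW, and 0, 0 and 0.149 under HS (edgeR adjusted p = 0.00151). In HS it was 131-fold lower, with a counting interval of 35.9 to 1084. WRKY53 had 12.03, 8.61 and 10.5 CPM under CK, 0.578 to 3.93 under PW and 1.79 to 3.13 under HS, and WRKY58 had 6.66 to 8.32, 1.75 to 2.22 and 1.56 to 2.72 CPM. WRKY51 fell with an adjusted p of 0.0494 by edgeR, which was lost without any 1 of 7 libraries. Their site, the W-box, was searched as TTGACC or TTGACT on both strands, and was in 37.2% of the windows of fallen genes, 27.8% of risen genes and 31.1% of all tested nuclear genes, but in 4 of the 26 salicylic acid genes (15.4%).

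Defensins and other genes driven by jasmonate and ethylene are known from defence against necrotrophic fungi and chewing insects. Of 12 tested genes 5 fell and 0 rose (median -1.92). Without CK replicate 1 or CK replicate 2, 9 were tested, and without CK replicate 3, 10, and 3 fell each time. Without HS replicate 3, 11 were tested and 10 fell. PDF1.2b and PDF1.3 reached 10 counts in CK libraries only, so they entered the test through CK. PDF1.2 had 46.6, 20.3 and 13.0 CPM under CK, 0.0854, 0 and 0.412 under PW, and 1.16, 0.412 and 0 under HS (log2 -6.48 ± 0.71, edgeR adjusted p = 0.000305). PDF1.2c, its neighbour, had 46.6, 9.70 and 7.35 CPM under CK, 0, 0 and 0.103 under PW, and 0.931, 0.660 and 0 under HS. PDF1.2b had no counts in PW, so it was at least 23.9-fold lower than CK against a floor of 3 counts over the group, and PDF1.3 was 165-fold lower in PW, with a counting interval of 29.3 to 6524. These copies share most of their sequence, so the split of reads among them is uncertain. The factor ORA59 fell by 3.22, while ERF1, PR3, PR4, VSP1 and VSP2 were not called. The summed level of the list was 432 to 866 CPM under CK, 48.3 to 457 under PW and 763 to 1276 under HS. VSP2, a vegetative storage protein, had 350, 228 and 314 CPM under CK, 310, 36.6 and 197 under PW, and 1171, 735 and 1122 under HS.

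**Figure D3:**
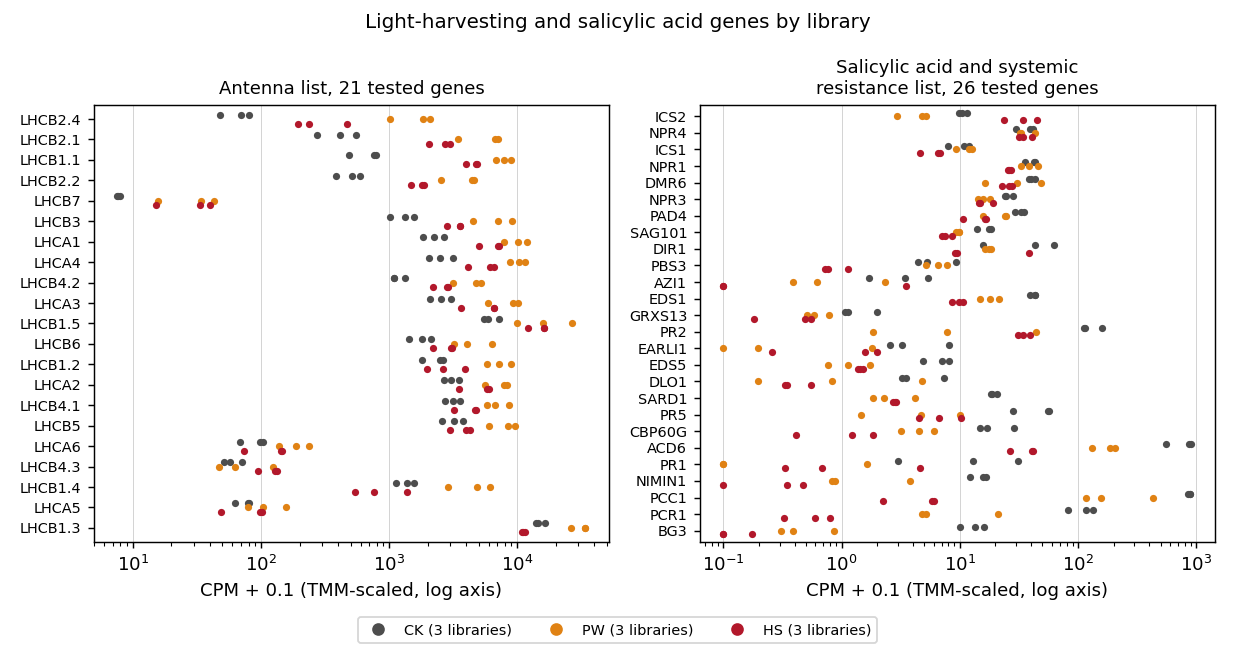
CPM of the 21 tested antenna genes (left) and the 26 tested salicylic acid and systemic resistance genes (right) in each of the 9 libraries, on a log axis after adding 0.1, with 1 point per library and colour for the group. Most warmed points lie to the right of CK for the antenna genes, where 11 rose, and to the left for the defence genes, where 14 fell.

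Glucosinolates are the sulphur defence compounds of the cabbage family, with an indole and an aliphatic branch. Of 15 genes of the indole branch and camalexin, 3 fell and 1 rose. When any 1 CK library was left out, 13 were tested and 1 fell. PEN3, an exporter at the cell surface, had 984, 1453 and 1295 CPM under CK, 286, 351 and 268 under PW, and 156, 160 and 80.3 under HS (log2 -2.64 ± 0.24, edgeR adjusted p = 0.000131). CYP81F2, which modifies indole glucosinolates, and PAD3, which makes camalexin, fell from low levels of 1.16 to 1.95 and 1.73 to 4.53 CPM under CK. MYB34, an activator of the branch, rose 3.42-fold, from 9.02 to 9.15 CPM under CK to 22.3 to 44.4 under PW and 25.9 to 28.5 under HS. Of 17 aliphatic branch genes 4 rose and 1 fell (median 0.60). MYB29, an activator of that branch, rose 3.58-fold, CYP79F2 2.93-fold and SOT18 2.24-fold, whereas MAM3, a chain-elongating synthase, fell by 2.2 on the log2 scale and further in PW. Without TMM 2 of the 17 rose.

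Of 18 tested cold-regulated genes, 8 fell and 1 rose (median -1.38). COR27, a cold-regulated repressor tied to the clock, had 72.0, 82.9 and 72.8 CPM under CK, 1.62, 0.963 and 2.06 under PW, and 15.8, 15.5 and 13.5 under HS, with no overlap among the groups. It fell by 3.98 ± 0.16 on the log2 scale (edgeR adjusted p = 4.9e-06). LTI30, a dehydrin that protects membranes, had 22.5 to 23.1 CPM under CK, 2.22 to 5.49 under PW and 2.23 to 3.05 under HS. COR15B, a plastid protein that guards membranes in frost, had 413, 813 and 756 CPM under CK, 90.8 to 162 under PW and 72.4 to 208 under HS, and ZAT12, a zinc finger regulator, had 8.12 to 29.5, 4.02 to 7.77 and 0.621 to 3.13 CPM. RD29A (-2.32), KIN2 (-1.80), COR15A (-1.68) and ERD7 (-1.09) fell as well, although single HS libraries of COR15A and ERD7 reached the CK range. CBF2, a master activator of this group, rose by 1.89 (edgeR adjusted p = 0.0422), from 1.79 to 6.52 CPM under CK to 14.2 to 30.7 under PW and 2.53 to 18.9 under HS, but lost its call in 7 of the 9 fits that left out 1 library. CBF1 and CBF3 were not called.

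The HSP20 family holds small heat shock proteins, which bind unfolding proteins, together with related proteins of other function. Of 37 tested genes 13 rose and 2 fell (median 0.89), but the medians were 0.93 under HS and 0.07 under PW, and the summed level was 461 to 505 CPM under CK, 382 to 422 under PW and 3685 to 3955 under HS. HSP21, of the chloroplast, had 0.0925, 0 and 0 CPM under CK, 1.11, 0.674 and 0.515 under PW, and 1300, 1407 and 457 under HS. The level in PW was 21.5 times that in CK (counting interval 5.36 to 187, from 25 against 2 counts) and that in HS 28400 times (7862 to 234500), with a pooled edgeR adjusted p of 0.0001. HSP17.4 had 0.0925, 0 and 0.0640 CPM under CK, 0.598, 0.385 and 1.65 under PW, and 445, 461 and 579 under HS, 15.5 times CK in PW (4.76 to 79.7). So the PW levels lay above CK but near the detection limit, where fitted folds depend on the prior count. ATHSP22.0, which did not pass in PW alone (edgeR adjusted p = 0.0755), and AT1G53540 had 0.385 to 0.513 and 0.289 to 0.513 CPM under PW and 213 to 845 and 202 to 242 under HS. When any 1 HS library was left out, 31 genes were tested and 8 rose, so some members passed the count filter only through HS. With 10 counts required in every library, 19 were tested and 5 rose. Without HS replicate 3, 5 fell.

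The window of HSP17.4 holds GAANNTTC, a short core of the heat shock element at which heat shock factors bind. It is shown in capitals in the 300 bases before the gene start.
HSP17.4, chr3:16984868-16985167, minus strand: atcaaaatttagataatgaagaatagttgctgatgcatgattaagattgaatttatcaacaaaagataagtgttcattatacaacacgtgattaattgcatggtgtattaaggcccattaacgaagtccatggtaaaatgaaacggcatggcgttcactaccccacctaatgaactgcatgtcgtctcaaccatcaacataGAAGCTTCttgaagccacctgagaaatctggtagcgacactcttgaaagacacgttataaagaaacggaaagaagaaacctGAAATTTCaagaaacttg
The copies start 99 and 18 bases before the gene start. GAANNTTC was in 5 of the 37 HSP20 windows (13.5%), 11.6% of risen genes, 14.5% of fallen genes and 11.3% of all tested nuclear genes.

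Among 12 cytosolic HSP70 and HSP90 genes and their partners 3 rose and 4 fell (median -0.56). The list held 17 names, but HSP70-3, HSP70-4, HSP70-5, HSP70-16 and HSP70-18 were not matched to a gene. These counts and the median therefore leave them out. HOP3, a cochaperone that links HSP70 and HSP90, had 2.07 to 3.01 CPM under CK, 6.83 to 10.9 under PW and 62.7 to 103 under HS (log2 3.43 ± 0.25, edgeR adjusted p = 6.26e-05). HSP70T-2 (2.66) and HSP90.1 (2.33) also rose, each with a larger level in HS than in PW. The 4 that fell were HSP81-2, from 273 to 356 CPM under CK to 99.9 to 161 under PW and 89.4 to 123 under HS, HSP81-3 by 1.43, HSP81.4 by 1.27 and HSP70-2 by 1.81 on the log2 scale. HSP81-2 and HSP81-3 are close copies, and their split of reads is uncertain.

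Of 13 tested heat shock factors, 2 rose and 1 fell. HSFA3, which acts downstream in the heat response, had 2.11 to 3.44 CPM under CK, 6.83 to 7.11 under PW and 7.75 to 10.01 under HS (log2 1.53 ± 0.20, edgeR adjusted p = 0.000726). HSFB2A rose by 1.55, a call lost without CK replicate 2 or CK replicate 3. Its PW libraries overlapped CK, and it did not pass in PW alone (edgeR adjusted p = 0.106). HSF A4A fell by 1.36 from 28.2 to 36.9 CPM under CK to 8.65 to 13.2 under PW and 11.3 to 15.9 under HS. HSFA2 was not called, at 2.70 to 4.07 CPM under CK, 1.73 to 5.89 under PW and 3.22 to 4.99 under HS. HSFA6A and HSFA6B lay above CK in HS and below it in PW. Of 26 chaperones of the endoplasmic reticulum, 13 moved in opposite directions, 0 rose and 2 fell, BIP3 (-3.53) and PDIL1-3 (-1.08). BIP3 reached 10 counts in CK libraries only, so it was not tested when any 1 CK library was left out. In those fits 25 were tested and 1 fell. PDIL1-3 did not pass in HS alone (edgeR adjusted p = 0.0861).

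Of 29 tested genes of thermomorphogenesis and auxin, 10 rose, 4 fell and 9 moved in opposite directions, with a median of 1.42 under PW and -0.24 under HS, and without TMM 4 rose and 5 fell. BBX18, a B-box protein that favours warm growth, had 3.10 to 4.94 CPM under CK, 18.5 to 31.2 under PW and 32.2 to 73.3 under HS (log2 3.35 ± 0.34, edgeR adjusted p = 0.00023). PIF5 rose by 1.68, from 44.7 to 55.5 CPM under CK to 146 to 249 under PW and 111 to 163 under HS. PIF4, the main PIF of warm growth, rose by 1.21, from 90.6 to 114 CPM under CK to 268 to 438 under PW and 157 to 194 under HS. PIF7 and PIF1 rose by 1.26 and 1.05, but without TMM the changes of PIF4, PIF7 and PIF1 were 0.91, 0.96 and 0.76, below 2-fold. PIF3 moved in opposite directions. YUC9, an auxin synthesis enzyme, rose from 0.402 to 0.463 CPM to 0.598 to 4.62 under PW and 0.776 to 1.86 under HS, with a weak call (edgeR adjusted p = 0.0424) lost in 6 of the 9 fits without 1 library. Of those that fell, XTR7 remodels cell walls, TAA1 makes an auxin precursor, and HTA9 and HTA11 encode histone H2A.Z, which is linked to temperature sensing. The groups of XTR7 and HTA11 overlapped, and the count of falls was 1 or 2 without any 1 CK library, HS replicate 1, HS replicate 2 or PW replicate 3.

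Antioxidant enzymes gave 6 rises, CAT2 included, and 0 falls among 23 genes (median 0.51). CSD3, the peroxisomal superoxide dismutase, had 19.1, 20.4 and 17.5 CPM under CK, 57.0, 61.9 and 58.6 under PW, and 86.6, 96.4 and 69.5 under HS (log2 1.89 ± 0.14, edgeR adjusted p = 6.26e-05). DHAR3, the plastid dehydroascorbate reductase, rose 2.18-fold, with a log2 change of 0.82 without TMM. APX2, a heat-induced ascorbate peroxidase, had 34.6 to 52.2 CPM under HS, but at most 0.103 under PW and 0.0463 under CK, so its PW level was 3.44 times CK with a counting interval of 0.179 to 203, and its common direction rests on 3 counts (edgeR adjusted p = 0.427 in PW alone). Without TMM 3 of the 23 rose and 2 fell. Among 25 class III peroxidases of the cell wall 1 rose and 1 fell, and 3 fell without PW replicate 1 and 8 without HS replicate 3.

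Citrate cycle genes gave 4 falls and 1 rise among 22 (median -0.46). IDH2, of isocitrate dehydrogenase, had 27.8, 31.1 and 26.0 CPM under CK, 12.9 to 14.3 under PW and 9.24 to 10.5 under HS (log2 -1.27 ± 0.11, edgeR adjusted p = 9.52e-05). FUM1, the mitochondrial fumarase, fell from 78.0 to 81.9 CPM under CK to 26.5 to 44.5 under PW and 25.2 to 47.0 under HS, and SDH2-2 and ACLB-2 fell by 1.07 and 1.14 on the log2 scale. PMDH2, the peroxisomal malate dehydrogenase, was 2.32-fold higher, but its groups overlapped and its call was lost in 5 of the 9 fits without 1 library.

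Ribosomal proteins build the translation machinery. Of 218 tested genes described as ribosomal proteins 54 fell and 6 rose, beside 8.37% and 8.06% of all genes, with a median pooled log2 change of -0.52, and 38 to 75 fell when 1 library was left out. The largest falls belonged to the very small proteins L39 and L41. AT2G25210, of the L39 family, had 90.8, 86.6 and 105 CPM under CK, 11.7, 2.99 and 7.52 under PW, and 3.49, 3.22 and 10.7 under HS (log2 -3.83 ± 0.42, edgeR adjusted p = 0.000309). The L41 genes AT3G08520 (-3.34), AT2G40205 (-3.24) and AT3G56020 (-3.23) followed. Of the 24 genes with an exon length up to 700 bases 19 fell (median -1.76), of 72 between 700 and 1000 bases 16 fell (median -0.61), and of 122 longer ones 19 fell (median -0.36).

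Exon length moved with the calls in all genes too. The share that fell was 21.9% up to 500 bases, 31.3% from 500 to 700, 17.3% from 700 to 1000, 7.93% from 1000 to 1500, 6.28% from 1500 to 3000 and 6.29% above. The share that rose was 16.0% up to 500 bases, 7.69% to 9.85% in the classes from 500 to 3000, and 3.88% above. With a correction for the length trend in each library, an alternative chosen after these values were seen, 40 ribosomal protein genes fell and 10 rose. The part of exon length in these falls was not tested beyond that correction.

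**Figure D4:**
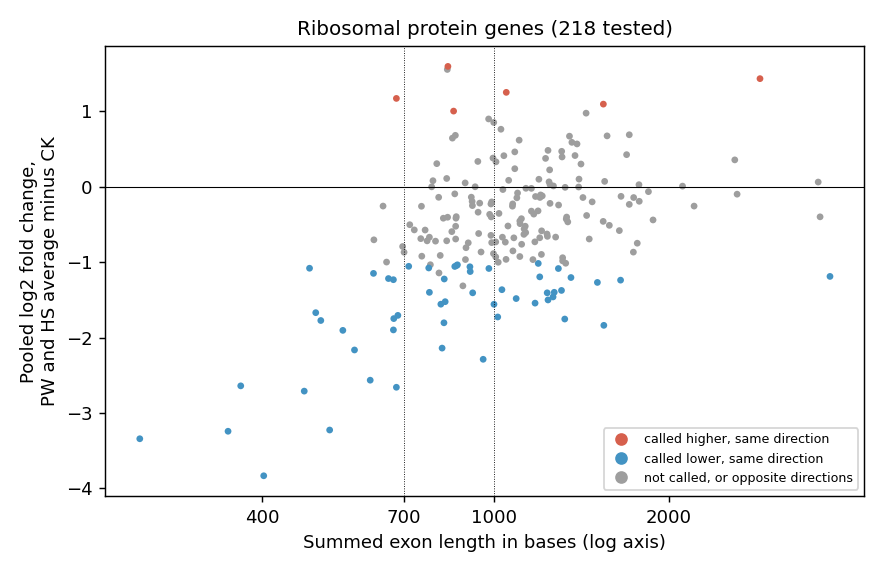
Pooled log2 change, the average of PW and HS minus CK, of the 218 tested ribosomal protein genes against exon length in bases, with colour for the call. The genes up to 700 bases, with a median of -1.76, lie below the longer ones, whose medians are -0.61 and -0.36.

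Of 31 tested genes of the cell cycle and DNA replication, 9 fell and 0 rose, with a median of -2.02 under HS and -0.44 under PW, and leaving out 1 library gave 3 (without CK replicate 1 or CK replicate 3) to 20 (without HS replicate 3). With the 6 warmed libraries as one group 0 fell, and 0 in a test against a 2-fold change, whereas DESeq2 gave 13 and the fit with the replicate number as a block 16. TSO2, a ribonucleotide reductase subunit that makes DNA precursors, had 53.3, 43.8 and 55.4 CPM under CK, 45.4, 12.4 and 38.0 under PW, and 8.07, 6.19 and 10.4 under HS (log2 -1.65 ± 0.33, edgeR adjusted p = 0.00488). ORC1B, of the origin recognition complex, had 5.97 to 7.29 CPM under CK, 1.54 to 4.02 under PW and 0.247 to 1.41 under HS, and CDC45, of the replication helicase, 3.21 to 6.20, 1.16 to 2.99 and 0 to 0.819 CPM. None of these 3 passed in PW alone (edgeR adjusted p = 0.228 for TSO2, 0.109 for ORC1B and 0.246 for CDC45). The summed level of the list was 415 to 515 CPM under CK, 241 to 530 under PW and 119 to 289 under HS. The PW libraries of TSO2 overlapped CK, and the flower markers, also had their lowest range in HS, and their part in the falls was not tested.

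The other lists held fewer common changes. Of 30 genes of abscisic acid and water deficit 22 moved in opposite directions, 6 rose and 0 fell. ABA1, the zeaxanthin epoxidase at the start of abscisic acid synthesis, rose 5.26-fold, from 91.3 to 138 CPM under CK to 297 to 1018 under PW and 294 to 660 under HS, and CYP707A2 and CYP707A4, which degrade the hormone, rose 3.01-fold and 4.54-fold, the latter with a call lost without any 1 CK library. P5CS1, which makes proline, rose 2.82-fold. Without CK replicate 2, 3 rose. Of 19 senescence genes 3 rose and 4 fell, or 2 fell without CK replicate 1 or CK replicate 2. SAG29, a sugar transporter, went from 0.0640 to 0.324 CPM under CK to 0.674 to 1.28 under PW and 144 to 261 under HS, and ACD2, which breaks down chlorophyll catabolites, rose 3.27-fold, while NYE2, which starts chlorophyll breakdown, fell by 2.01 with a call lost in 5 of the 9 fits without 1 library.

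Of 17 starvation genes 3 rose and 0 fell. BZIP63, a transcription factor of energy stress, had 6.40 to 8.19 CPM under CK, 42.6 to 60.7 under PW and 9.76 to 11.95 under HS, DIN10, a raffinose synthase-like protein, rose 2.85-fold, and BZIP9 rose 2.58-fold with overlapping groups. BZIP63 and DIN10 rose further in PW. Of 22 flavonoid genes 1 rose and 2 fell, or 9 fell without HS replicate 3. MYBL2, a repressor of anthocyanin synthesis, had 11.8 to 18.3 CPM under CK, 96.4 to 298 under PW and 12.6 to 29.7 under HS, which overlapped CK (edgeR adjusted p = 0.394 in HS alone), and FLS1, flavonol synthase, fell by 2.07. Of 40 wall-remodelling genes 3 rose and 8 fell, with 2 (without CK replicate 1 or CK replicate 2) to 13 falls (without HS replicate 3) when 1 library was left out, and 0 falls with the 6 warmed libraries as one group or in a test against a 2-fold change. XTH31 rose 6.99-fold and XTH9 fell by 3.01 on the log2 scale. Among marker genes of other leaf cells, APL of the phloem (1.26) was 1 of 6 vascular markers called, and the median of those markers was -0.15. TRY of trichome patterning (2.74) was 1 of 4 trichome markers called, and their median was -0.98, so neither rise describes its list. Of 6 guard cell markers 0 passed.

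**Figure D5:**
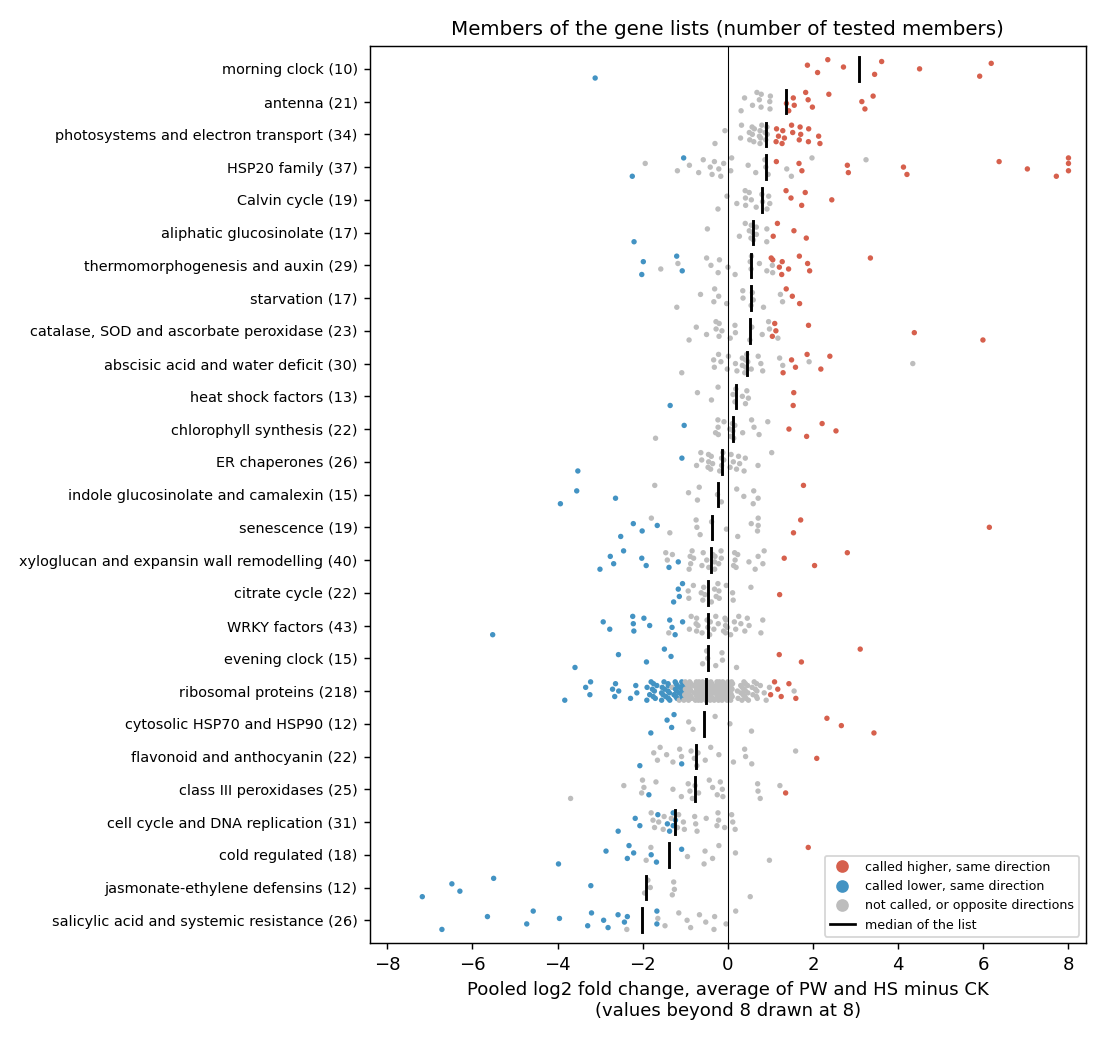
Pooled log2 change, the average of PW and HS minus CK, of each tested member of the 27 pathway lists, with 1 point per gene, colour for the call, a bar at the list's median and values beyond 8 drawn at 8. The morning clock (median 3.08) and antenna (1.38) lists lie highest, and the defensin (-1.92) and salicylic acid (-2.02) lists lowest.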

How the data were processed

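Leaf RNA of 9 libraries was sequenced on an Illumina instrument. Per the labels and the study's methods, the authors removed adapter, poly-N and low-quality reads, aligned with TopHat2 to TAIR10 and counted reads per gene. The submitters' processing notes name HTSeq 0.6.1 and CASAVA 1.8. Strand use and the handling of reads with several matches are not given in the sources used here. The deposited values are raw counts per gene, and 0 columns of the count table went unused. Gene names, positions and sequence come from RefSeq TAIR10.1.

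Genes reaching 10 counts in 3 or more of the libraries were fitted in edgeR 4.0.16 (R 4.3.3, limma 3.58.1) with TMM factors, 1 coefficient per treatment and the quasi-likelihood test. The Benjamini-Hochberg adjustment ran over every tested gene, and calls needed a 2-fold change or more with an adjusted p below 0.05. CPM used the TMM factors. Counting intervals are exact at 95% and cover counting error only. Scripts were tested on simulated data.

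The largest changes named were the 12 rises and 12 falls ranked by the smaller of their HS and PW changes, among called genes with no overlap and 100 or more counts in each library of the side with more. Up to 4 called members of each list followed the same ranking. Other members named were chosen after their values were seen. The comparison and the lists were chosen with earlier results of these data known. Of 1032 names or family members on the lists, 1008 were matched to genes of the count table. Alternatives were DESeq2 1.42.0, other scaling, filters, designs and thresholds, each library left out, and a length correction chosen after seeing the data. The count filter was applied again with each library left out, so some lists then had fewer tested genes. The sequence of 1 promoter is not reported here.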

Additional observations from a re-analysis of the deposited data

Results flagged for a closer look

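For 41 genes named in the report or by the same rule, the common change differed in size between the treatments, by the edgeR test of PW against HS with an adjusted p under 0.05. Values are log2 differences, PW minus HS, and no cause was tested.

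Among genes with a pooled rise, the change was larger in PW for MYBL2 (3.22), LHCB2.4 (2.45), BZIP63 (2.24), CIPK20 (2.13), HEMA1 (2.1), DIN10 (1.34), RBCS2B (1.31), LHCB2.1 (1.14), CRD1 (0.954), GUN4 (0.925), LHCB1.1 (0.802) and COL2 (0.756). It was larger in HS for HSP21 (-10.4), ATHSP22.0 (-10.1), APX2 (-9.18), HSP17.4 (-9.16), AT1G53540 (-9.04), SAG29 (-7.63), HOP3 (-3.21), AT1G62510 (-2.33), BBX18 (-1.20), FD1 (-1.06) and CSD3 (-0.508). The first 5 of these had PW levels near the detection limit.

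Among genes with a pooled fall, the change was larger in HS for PCR1 (4.43), BG3 (3.66), NIMIN1 (3.02), CDC45 (2.79), TSO2 (1.96), AT3G22235 (1.91), ORC1B (1.86), BIP3 (1.58), FLS1 (1.5), ELF4 (1.27), PEN3 (1.19) and IDH2 (0.446). It was larger in PW for COR27 (-3.26), PRX52 (-2.46), MAM3 (-1.95), JMJD5 (-1.54), PDIL1-3 (-1.38) and LUX (-0.448).

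The smaller change did not pass on its own for MYBL2 (adjusted p = 0.394) and DIN10 (0.0807), nor for PRX52 (0.299) and PDIL1-3 (0.0861), all in HS, nor in PW for ATHSP22.0 (0.0755), APX2 (0.427), CDC45 (0.246), TSO2 (0.228) and ORC1B (0.109), all by edgeR.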

How the results depend on the processing

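The main counts were 1527 genes higher, 1587 lower, 2507 of the common genes also called in HS vs CK, 2079 in PW vs CK and 1002 that differed between PW and HS. Without TMM 862 were higher and 2501 lower. A test against a 2-fold change (glmTreat) gave 416 higher, 445 lower, 652 in HS, 537 in PW and 123 between PW and HS, and the adjusted p alone gave 3542, 3312, 5346, 4566 and 2062. With 1 library left out the ranges were 1249 to 1702 higher, 1124 to 2536 lower, 1855 to 3657 in HS, 1562 to 2571 in PW and 665 to 1859 between PW and HS, where the highest count of lower genes, and of differences, came without HS replicate 3, and the lowest count of differences without HS replicate 2. DESeq2 called 3284 genes and kept 99.1% of the 3114 main calls. The correction for length gave 57.6% higher and that for GC content 56.8%, against 49.0%. No direction reversed for the named genes under any of these settings.

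With the replicate number as a block, 3147 genes were called, 94.9% of the main calls among them. Correlations of deviations were 0.136 to 0.310 between same-numbered CK and PW libraries and negative between the others of CK and PW. Deviations sum to 0 within a group, so these negative values follow in part from the positive ones. For same-numbered pairs with HS they ran from -0.497 to 0.450, while PW replicate 1 and HS replicate 3 reached 0.537. So the numbers do not pair all 3 groups, and whether they mark pairs of CK and PW was not tested. The block moved the cell cycle falls from 9 to 16 and the chlorophyll falls from 1 to 2, and left 0 rises in place of 1 among class III peroxidases. Genes near the detection limit rest on 0 to 4 counts in the lower group. Some list counts moved with other settings. Falls with the 6 warmed libraries as one group were 0 for the cell cycle, 0 for wall remodelling, 7 for WRKY factors, 2 for senescence and 2 for thermomorphogenesis. Among genes with 10 counts in every library, which leaves out members at or near 0 in the warmed libraries, 7 salicylic acid genes, 6 WRKY factors and 0 defensins fell and 5 HSP20 genes rose. The test against a 2-fold change left 6 antenna rises, 4 photosystem rises, 10 salicylic acid falls, 14 ribosomal falls, 8 morning clock rises and 4 evening clock falls.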
